A study of Gallus gallus with 8 samples.

Results

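The members described here are 8 immediate early and stress response genes: EGR1, a zinc finger factor, the AP-1 components JUN, JUND, FOS and FOSL2, the stress-induced bZIP factor ATF3, the zinc finger factor KLF6 and the early response gene IER2. They were taken as the rows of the deposited array table that carry one of these symbols, which gave 8 probe sets, for EGR1, JUN, FOS, FOSL2 and ATF3. KLF6 stands in the table under a clone name, and its gene ID added 3 probe sets. In all, 6 of the 8 genes were measured, out of 13249 genes with a symbol, and by 11 of the 38439 probe sets tested. JUND and IER2 were not analysed here because no probe set was found under their symbols or gene IDs.

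Immediate early genes are transcribed within minutes of an outside signal, with no need for new protein synthesis, because the proteins that switch them on are already in the cell. MAP kinases phosphorylate partners of serum response factor as well as JUN itself, and many of the genes switched on in this way encode transcription factors that set the next round of transcription. Growth factors, wounding and many kinds of cell stress call on the same genes.

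RNA came from the neural tubes of white Leghorn chick embryos (Gallus gallus) that were electroporated in ovo at trunk levels at Hamburger and Hamilton stages 10 to 11 and dissected 24 h later. Every embryo received the same 2 plasmids. In one, a BMP-responsive element (BRE) and a tk promoter drove enhanced green fluorescent protein, and in the other the pCAGGS vector expressed a nuclear red protein. Red and green cells formed the BRE_active group, with BMP signalling read out by the reporter, and red cells without green formed the BRE_inactive group. About 30 embryos made up a pool, both fractions were sorted from each of 4 pools, and each fraction went onto 1 array, which gave 4 arrays per group and 8 in all. The reporter is a transient plasmid in a mixed tissue, so each group is a mixture of cell types. In such bulk samples fewer cells of a type and less RNA per cell cannot be told apart.

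All levels are the authors' log2 expression values, and a difference is BRE_active minus BRE_inactive on that scale, so 1 unit is a doubling. A probe set is called detected on an array where the authors' table marks it present. Differences were fitted with limma across all tested probe sets, with Benjamini-Hochberg adjustment over all of them and a threshold of 0.05. The main test used the group alone. The same fit with each pool of embryos as a block compares the fractions within each pool, and its result is given beside the main one, since each pool was sorted into both fractions. Chromosomes are those of the deposited table. With the group alone, limma called 1.34% of all probe sets, and with the block 5.61%.

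EGR1, a direct target of ERK signalling whose protein binds GC-rich promoter sites, had the largest difference of the members and also varied most between pools. Its brighter probe set (gene ID 373931, chromosome 13) read 11.43, 10.20, 10.84 and 8.50 in the BRE_active fractions of pools 1 to 4, against 9.82, 8.59, 9.81 and 7.75 in the BRE_inactive fractions. Within every pool the BRE_active fraction was the higher one, but BRE_active cells of pool 4 lay below BRE_inactive cells of the other pools, so the groups overlapped. The means were 10.24 ± 1.27 in BRE_active and 8.99 ± 1.01 in BRE_inactive cells (SD, n = 4 each). The difference of 1.25 ± 0.64 (SE) was not called with the group alone (adjusted p = 0.427) and passed as higher when the pool was a block (± 0.15, adjusted p = 0.00316). As a fold this is 2.38, with a 95% interval of the log2 difference from 0.90 to 1.60 with the block and from -0.19 to 2.68 without it.

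The second, dimmer EGR1 probe set gave the same order of arrays. It read 6.73, 5.17, 5.80 and 3.72 in BRE_active cells of pools 1 to 4, against 4.49, 3.77, 4.40 and 3.19 in BRE_inactive cells. Pool 1 was again the highest and pool 4 the lowest in both fractions. The difference was 1.39 ± 0.56 (adjusted p = 0.310 with the group alone, 0.0110 with the block). Within pools 1 to 4 the brighter probe set differed by 1.62, 1.60, 1.03 and 0.74 and the dimmer one by 2.25, 1.40, 1.40 and 0.53. Pool 4 had the smallest difference by both. Without BRE_active 4 or the whole of pool 4 the dimmer probe set was called with the group alone (1.94 and 1.68, adjusted p = 0.0318 and 0.0406). Calls over all probe sets also rose there, from 517 to 1419 and 1269. The pool 4 readings of the dimmer probe set lay under the array medians of 4.24 to 4.32, and whether this narrowed its difference was not tested. The block no longer called the dimmer probe set without pool 2 or pool 3 (adjusted p = 0.0535 and 0.0713), while it called the brighter one without any single pool (adjusted p up to 0.0245).

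**Figure D1:**
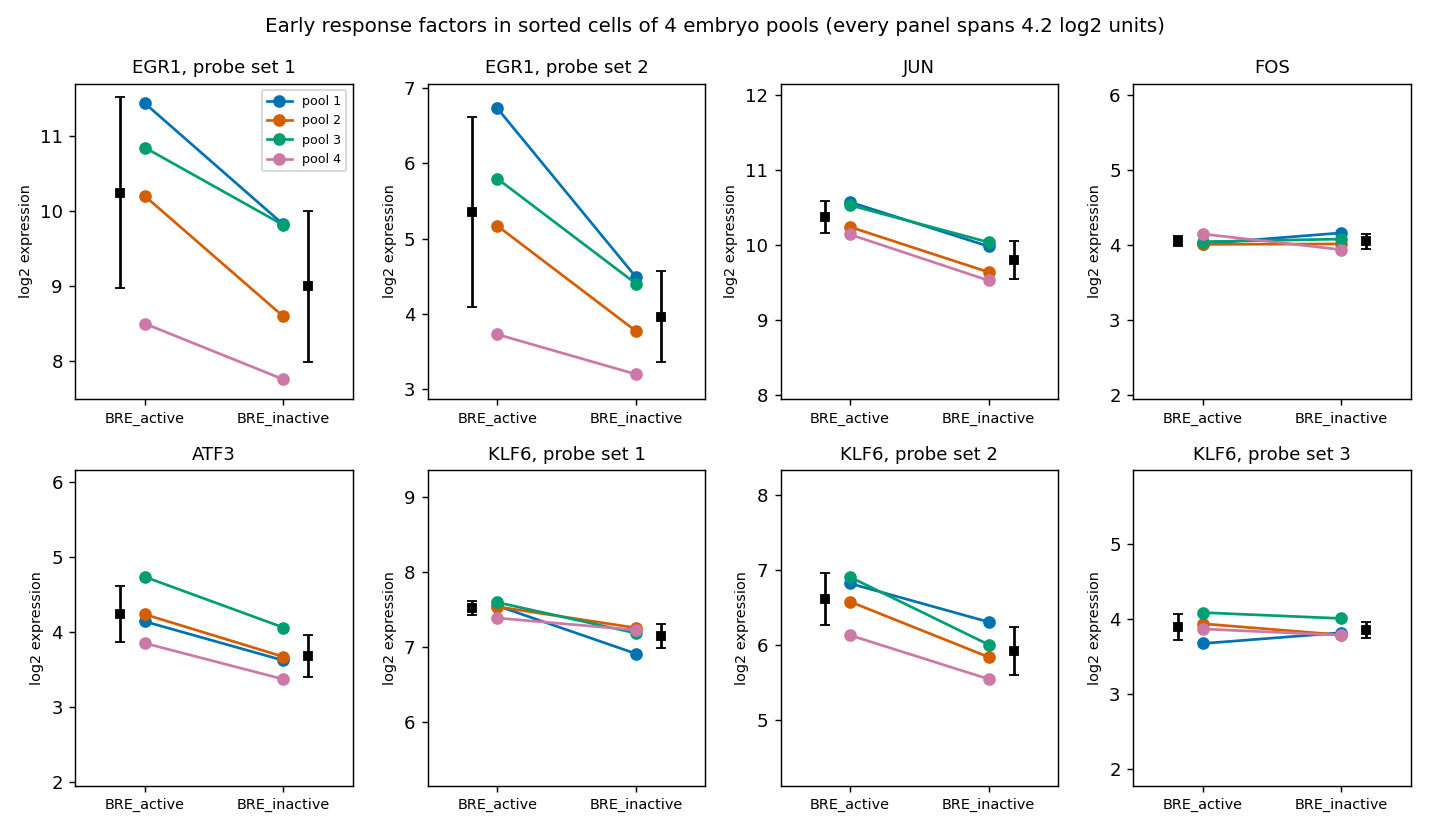
Log2 expression of the detected members and of FOS on every array, BRE_active on the left and BRE_inactive on the right of each panel, with a coloured line for each pool of embryos and black squares for the group mean ± SD (n = 4). The lines of EGR1, JUN, ATF3 and KLF6 probe sets 1 and 2 run downward to BRE_inactive in all 4 pools, EGR1 has the widest spread between pools, and FOS and KLF6 probe set 3 show no direction shared by the pools.

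JUN, the AP-1 subunit that is itself phosphorylated by JNK kinases, showed a smaller difference that was nearly the same in every pool. Its single probe set (gene ID 424673, chromosome 8) read 10.57, 10.24, 10.53 and 10.14 in BRE_active cells of pools 1 to 4, against 9.98, 9.64, 10.04 and 9.53 in BRE_inactive cells. Every BRE_active array lay above every BRE_inactive array. The means were 10.37 ± 0.21 and 9.80 ± 0.25 in BRE_active and BRE_inactive cells (SD, n = 4 each), a difference of 0.57 ± 0.15, or 1.49-fold (adjusted p = 0.113). The 4 within-pool differences were 0.59, 0.60, 0.49 and 0.61, with an SD of 0.0548 between pools. When the pool was a block JUN passed as higher (± 0.08, adjusted p = 0.00610), also without any single pool (adjusted p up to 0.0413), and it was the one member also called with the pool as a random block (adjusted p = 0.0335). Without BRE_active 4 it was called with the group alone (0.65, adjusted p = 0.0474), where calls over all probe sets rose from 517 to 1419.

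FOS, which pairs with JUN in AP-1 and is a textbook immediate early gene, was marked present on 0 of 8 arrays. Its probe set (gene ID 396512, chromosome 5) read 4.01, 4.01, 4.04 and 4.14 in BRE_active cells of pools 1 to 4, against 4.16, 4.01, 4.08 and 3.94 in BRE_inactive cells. Both groups lay within a narrow band, and no direction was shared by the pools. The limma adjusted p was 0.984 with the group alone and 0.985 with the block. With no present call in either group, these readings measure no size of a difference. A probe set can fail to reach a transcript, and whether FOS RNA was in these cells was not tested by any other measure.

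FOSL2, a longer-lived FOS-family partner of JUN also called FRA-2, had 3 probe sets (gene ID 421416, chromosome 3), each marked present on 0 of 8 arrays. The brightest read between 4.31 and 4.48 in BRE_active and between 4.27 and 4.62 in BRE_inactive cells. The other two had means of 3.29 and 3.07 in BRE_active and 3.31 and 3.10 in BRE_inactive cells. The groups overlapped for all 3 probe sets, and adjusted p-values were 0.648, 0.957 and 0.928 with the group alone and 0.586, 0.956 and 0.914 with the block. FOS and FOSL2 were the FOS-family genes measured, and neither was detected on any array.

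ATF3, a bZIP repressor induced by many stresses, was marked present on 3 of 4 BRE_active and 0 of 4 BRE_inactive arrays. The probe set (gene ID 421369, chromosome 3) read 4.14, 4.24, 4.74 and 3.85 in BRE_active cells of pools 1 to 4, against 3.62, 3.67, 4.06 and 3.37 in BRE_inactive cells. Pool 3 was highest and pool 4 lowest in both fractions, and the groups overlapped because BRE_inactive 3 lay above BRE_active 4. The means were 4.24 ± 0.37 in BRE_active and 3.68 ± 0.28 in BRE_inactive cells (SD, n = 4 each). By these means the ATF3 readings were 1.47-fold higher in BRE_active cells. This ratio takes in BRE_active and BRE_inactive arrays without a present call, so it is neither a measured size nor a lower bound. A floor under each BRE_inactive reading, the lowest reading on that array among probe sets detected on all 4 BRE_inactive arrays, left it unchanged. The ratio does not take in the spread between arrays. The adjusted p was 0.249 with the group alone and 0.00771 with the block, and without pool 3 the block gave 0.0634.

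KLF6, a Krüppel-like zinc finger factor that binds GC boxes, had 3 probe sets present on all 8 arrays (gene ID 420463, chromosome 2), and they did not give the same answer. The brightest read 7.54, 7.53, 7.59 and 7.38 in BRE_active cells of pools 1 to 4, against 6.91, 7.25, 7.18 and 7.22 in BRE_inactive cells. The groups did not overlap, and the difference was 0.37 ± 0.10 (adjusted p = 0.128). The block did not change this call (adjusted p = 0.0739), as the within-pool differences ran from 0.16 in pool 4 to 0.64 in pool 1.

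The second KLF6 probe set read 6.82, 6.57, 6.90 and 6.13 in BRE_active cells, against 6.30, 5.83, 6.00 and 5.54 in BRE_inactive cells. It was higher in BRE_active cells in all 4 pools, while the groups overlapped because BRE_active 4 lay below BRE_inactive 1. The difference was 0.68 ± 0.20, or 1.61-fold (adjusted p = 0.168 with the group alone, 0.00566 with the block). Without BRE_active 4 it was called with the group alone (0.84, adjusted p = 0.0314), and likewise without pool 4 (0.72, adjusted p = 0.0322). Calls over all probe sets rose from 517 to 1419 and 1269 in the same settings. The third probe set was the dimmest. It read between 3.68 and 4.09 in BRE_active and between 3.79 and 4.01 in BRE_inactive cells, a difference of 0.04 ± 0.10 (adjusted p = 0.889, 0.849 with the block). Its interval with the block, from -0.16 to 0.24, leaves out the differences of the other two KLF6 probe sets. All its readings lay under the array medians of 4.24 to 4.32, and whether so dim a probe set can show such differences was not tested.

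Counted over all 11 probe sets, limma called 0 members with the group alone, against the 1.34% of all probe sets that were called. An unadjusted p under 0.05 was found for 5 of them, compared with 13.9% of all probe sets. With the block it called 5 of 11, all higher: both EGR1 probe sets, JUN, ATF3 and the second KLF6 probe set. The share over all probe sets called higher with the block was 3.97%. Counted by gene, with the brightest probe set of each, the block called 3 of 6 members higher, EGR1, JUN and ATF3. The share over all 13249 genes was 4.91%. ATF3 was present on 0 BRE_inactive arrays, so its call in both counts rests on readings without a present call in that group. Of the 11, 6 were higher in BRE_active cells in all 4 pools, compared with 13.2% of all probe sets. The groups did not overlap, with BRE_active above, for 2 of the 11, JUN and the brightest KLF6 probe set, compared with 3.74% of all. These counts describe the members and are no test of the group as a whole.

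**Figure D2:**
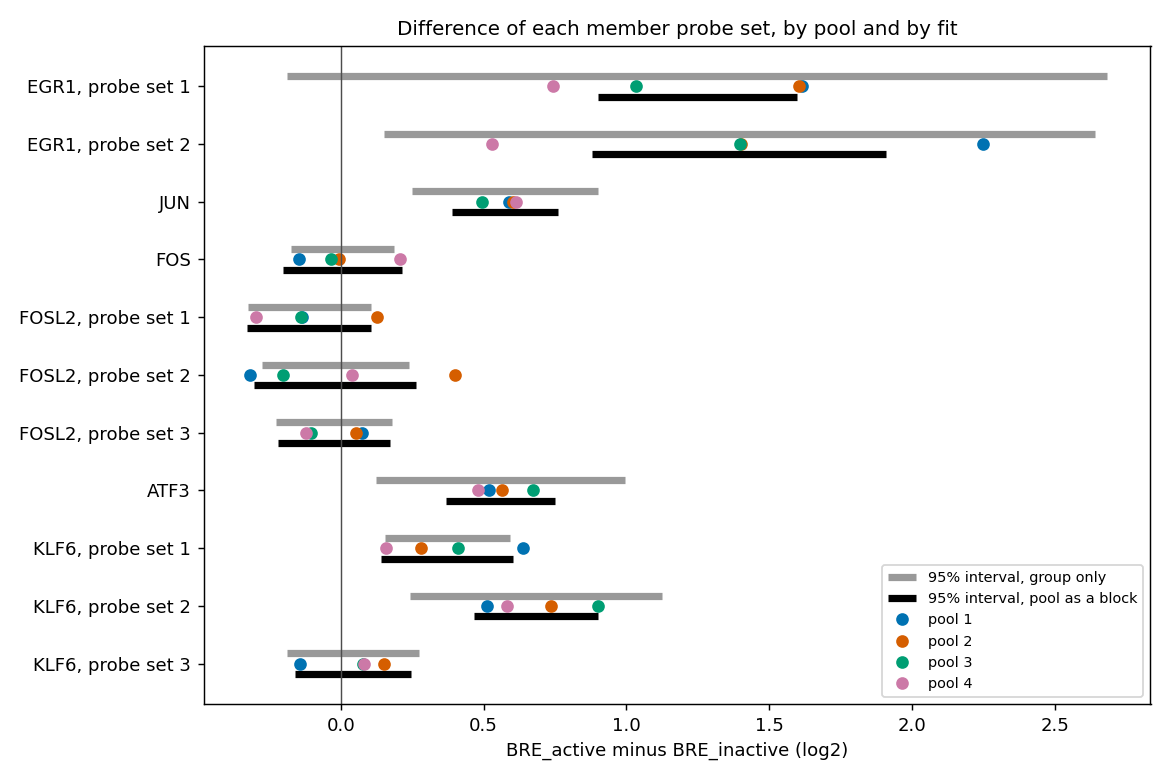
Difference between BRE_active and BRE_inactive cells (log2) for each of the 11 probe sets, with a point for each pool, a grey bar for the 95% interval of the fit on group alone and a black bar for that with the pool as a block. The points of JUN lie between 0.49 and 0.61, those of the brighter EGR1 probe set between 0.74 and 1.62, and those of FOS and FOSL2 scatter on both sides of 0. FOS and FOSL2 were detected in neither group and ATF3 not in BRE_inactive, so their points show readings and not measured sizes.

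The fit on group alone counts variation between pools as error, and the fit with the block does not. For the brighter EGR1 probe set the pool of embryos made up 69.0% of the sum of squares over the 8 arrays, the reporter fraction 28.4% and the rest 2.57%. The mean of both fractions was 10.62, 9.39, 10.33 and 8.13 in pools 1 to 4. That range of 2.50 was the widest among the 10875 probe sets present on all 8 arrays, whose median range was 0.391. The dimmer EGR1 probe set ranked 6 among them, with a range of 2.15.

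For JUN the fraction made up 67.0% and the pool 32.5%, which left 0.457%. For ATF3 the shares of fraction and pool were 49.1% and 50.1%, and for the second KLF6 probe set 58.4% and 38.8%. ATF3 was detected on 3 BRE_active and 0 BRE_inactive arrays, so its shares split readings mostly without a present call. The brightest KLF6 probe set had 73.6% from the fraction, 9.77% from the pool and 16.6% left over, and the third KLF6 probe set 2.81%, 77.7% and 19.5%. The medians over the 10875 probe sets, which leave out ATF3, were 20.2%, 50.1% and 19.5% for fraction, pool and rest. Of the 7 member probe sets detected on any array, 5 had their lowest value in pool 4 in both fractions: both EGR1 probe sets, JUN, ATF3 and the second KLF6 probe set. Over the 10875 probe sets, which were present on all 8 arrays and so leave out ATF3, that pattern held for 26.3%.

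**Figure D3:**
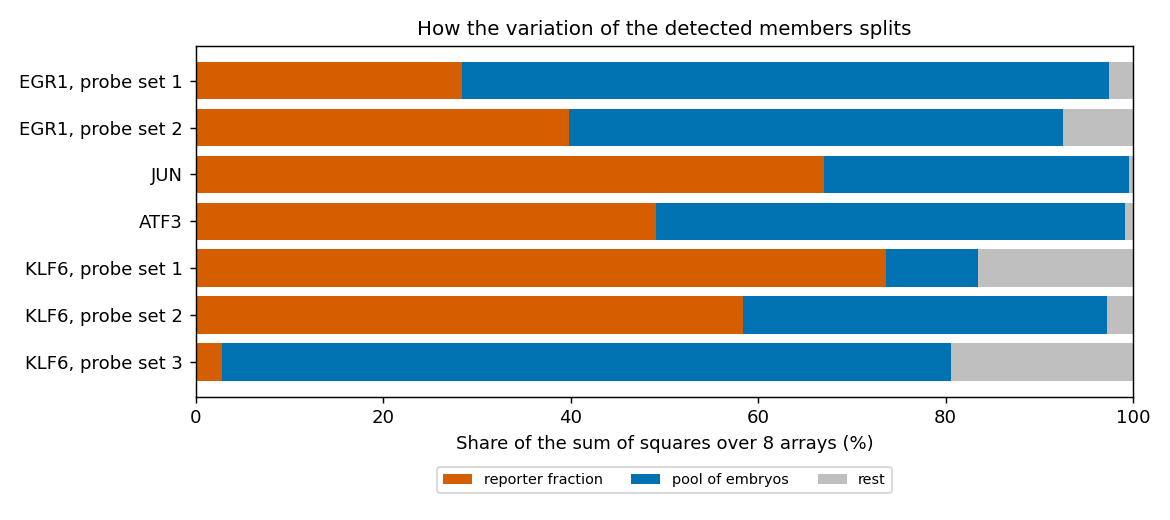
Share of the sum of squares over the 8 arrays that belongs to the reporter fraction, the pool of embryos and the rest, for each detected member probe set. The pool takes 69.0% for the brighter EGR1 probe set and 77.7% for the third, dim KLF6 probe set, and the rest is smallest for JUN (0.457%). ATF3 was detected on 3 BRE_active and 0 BRE_inactive arrays, so its bar splits readings mostly without a present call.

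Some properties of the arrays moved with the same groups and pools. The 3-prime minus 5-prime signal of the actin, EF1A and GAPDH controls, averaged over these genes, was 2.83, 3.20, 3.24 and 2.39 in BRE_active cells of pools 1 to 4, against 2.72, 2.59, 2.84 and 2.18 in BRE_inactive cells. It was thus higher in BRE_active cells in all 4 pools and lowest in pool 4 in both fractions, as EGR1 was. Its part in the member results was not tested.

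The cell makeup of the fractions also differed by marker genes. Of 8 neural crest markers all were detected, and their mean level was 8.35 to 9.01 in BRE_active and 6.56 to 7.64 in BRE_inactive cells. Of 8 neural tube markers 7 were detected (ZIC2 on no array), with mean levels of 8.74 to 9.10 in BRE_active and 9.27 to 9.79 in BRE_inactive cells. The 9 red blood cell markers measured lay at 6.64 to 9.06 in BRE_active and 10.28 to 12.14 in BRE_inactive cells. Among them, the listed ALAS2 was matched to ALAS1 by a gene synonym.

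Over all 4 pools, mean levels of the other marker lists overlapped between the groups. For 7 somite and mesoderm markers (TBX6 on no array) they were 5.28 to 6.70 in BRE_active and 5.47 to 6.05 in BRE_inactive cells. For 8 surface ectoderm markers, with the listed KRT19 matched to KRT24 by a gene synonym, they were 6.94 to 7.89 and 7.22 to 7.78 in the same groups. For 8 endothelial and macrophage markers they were 4.47 to 5.06 in BRE_active and 4.27 to 4.62 in BRE_inactive cells, with the leukocyte gene PTPRC on no array. Within pools, the somite and mesoderm mean was higher in BRE_active cells in 3 of the 4, and the endothelial and macrophage mean likewise. Pool 1 was the exception for both lists. The average differences over all 4 pools were 0.51 and 0.32. The surface ectoderm mean was higher in 2 pools, with an average difference of -0.05. The part of cell makeup in the member results was not tested.

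Genes whose profile over the 8 arrays was most like a member's were sought among 6967 named genes detected on at least 4 arrays, by the root mean square difference of values centred on each gene's mean. The search was made for EGR1 and JUN, whose brightest probe set was detected and spanned at least 1 log2 unit, and for FOS. Nearest to EGR1 were JMJD1C, which encodes a histone demethylase family protein, at 0.494 log2 units, the neuregulin receptor ERBB4 at 0.514 and the sialyltransferase ST3GAL1 at 0.542. The median over all genes was 1.18, and a flat profile would lie at 1.17. These genes were chosen for this likeness, so the pattern that they share with a member over the groups and pools follows from the choice and is given with no test. JMJD1C, for instance, read 8.33, 7.94, 7.62 and 6.05 in BRE_active cells of pools 1 to 4, against 6.23, 6.33, 6.53 and 4.44 in BRE_inactive cells.

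Nearest to JUN were HN1L at 0.0960, the synaptotagmin gene SYT9 at 0.100 and the ubiquitin ligase gene NEURL1 at 0.103. Here the median over all genes was 0.391, and a flat profile would lie at 0.351. HN1L read 6.23, 5.81, 6.09 and 5.52 in BRE_active cells, against 5.40, 5.03, 5.59 and 5.10 in BRE_inactive cells. FOS, present on no array, gave nearly flat readings that spanned 0.223 log2 units. URB2, VPS11 and IDO2 were nearest to these readings, at 0.0312, 0.0314 and 0.0376, which says nothing of FOS expression.

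**Figure D4:**
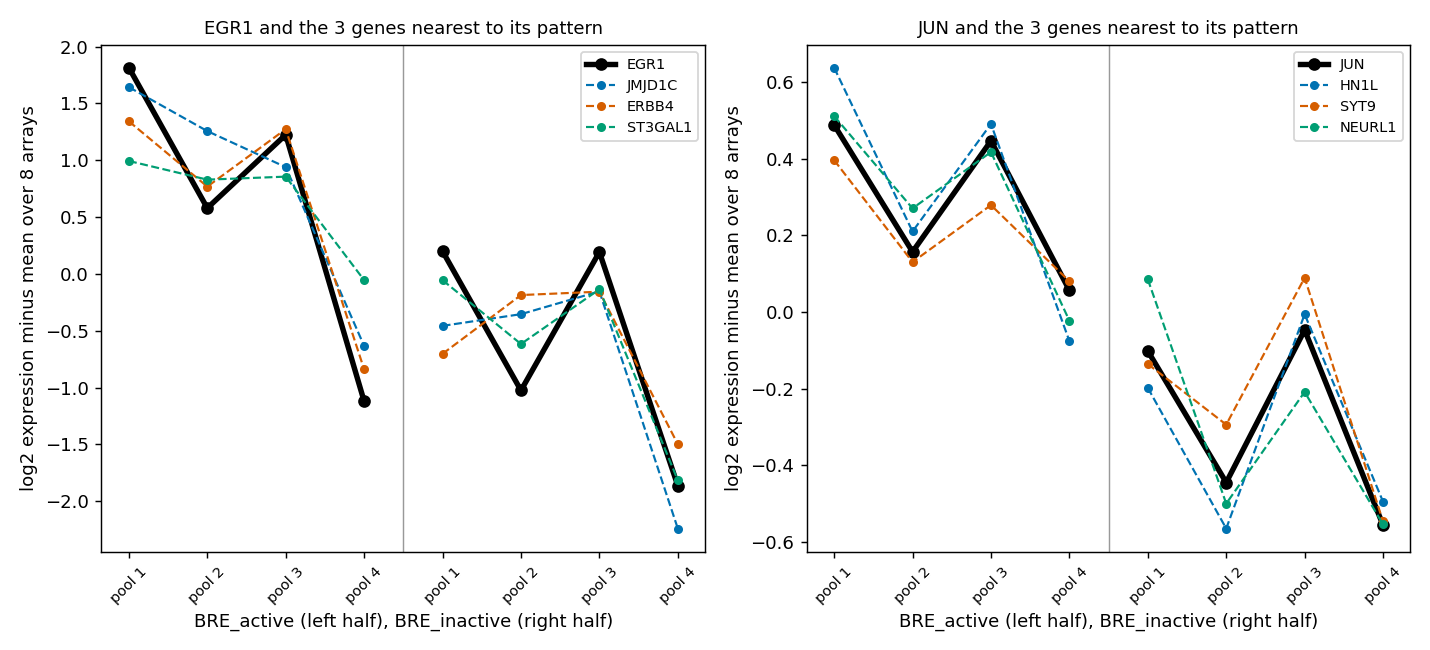
Log2 expression centred on each gene's mean over the 8 arrays for EGR1 (left panel) and JUN (right panel) with the 3 genes nearest to each, BRE_active pools 1 to 4 on the left and BRE_inactive pools 1 to 4 on the right of each panel. EGR1 and its neighbours drop in pool 4 of both fractions, and JUN and its neighbours have their highest BRE_active value in pool 1 and their lowest in pool 4.

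Genes related to the members by family or pathway were taken as lists, with the brightest probe set for each gene. Over all 13249 genes so represented, 2.21% were called with the group alone (1.55% higher and 0.657% lower) and 7.46% with the block (4.91% higher and 2.55% lower), with a median difference of -0.02. An unadjusted p under 0.05 with the group alone was found for 17% of them. Of 22 other AP-1 and related bZIP genes measured, limma called 0 with the group alone, where 5 had an unadjusted p under 0.05, and the median difference was 0.10. With the block 2 were called higher and 1 lower. BATF3, present on 3 BRE_active and 1 BRE_inactive arrays, differed by 0.42 ± 0.14 and NFE2L2, the regulator of antioxidant genes, by -0.45 ± 0.15 (both adjusted p = 0.234). A second NFE2L2 probe set gave -0.42 (adjusted p = 0.432). MAFA was present on no array (adjusted p = 0.0645 with the group alone and 0.0335 with the block).

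Of 34 other immediate early genes measured, 4 were called higher and 0 lower with the group alone, and 7 higher and 4 lower with the block, with a median difference of 0.02. The kinase gene PLK2 read 4.82, 4.91, 5.19 and 4.94 in BRE_active cells of pools 1 to 4, against 3.87, 3.76, 3.80 and 3.73 in BRE_inactive cells. The probe set was present on 4 BRE_active and 1 BRE_inactive arrays. The groups did not overlap, and PLK2 rose by 1.18 ± 0.09 (adjusted p = 0.000623), while a second PLK2 probe set, present on no array, did not pass (adjusted p = 0.521). The matricellular gene CCN2, also known as CTGF, rose by 0.86 ± 0.13 (adjusted p = 0.0150), the small GTPase gene RHOB by 0.74 ± 0.14 (adjusted p = 0.0324, and 0.912 for a probe set present on no array) and the nuclear factor gene CSRNP1 by 1.43 ± 0.27 (adjusted p = 0.0337). CSRNP1, like EGR1, was lowest in pool 4, at 6.89 in BRE_active and 5.35 in BRE_inactive cells, against 7.35 to 8.05 and 6.19 to 6.33 in the other pools of the same fractions. CCN2 was not, with its highest values in pool 4, 10.54 in BRE_active and 9.75 in BRE_inactive cells.

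Of 38 genes listed under the MAP kinase cascade and serum response, 2 rose and 1 fell with the group alone, with a median difference of 0.09. With the block there were 4 higher and 1 lower. The serum response partner ELK3, present on 4 BRE_active and 3 BRE_inactive arrays, rose by 0.69 ± 0.14 (adjusted p = 0.0429). The kinase gene RPS6KA1 was present on 3 BRE_active and 0 BRE_inactive arrays. Its mean reading was 1.41-fold higher in BRE_active cells (adjusted p = 0.0404), which is not a measured size. HRAS, which encodes a RAS GTPase upstream of ERK, fell, with a difference of -1.005 ± 0.17 (adjusted p = 0.0213), with 8.44 to 9.06 in BRE_active and 9.28 to 9.89 in BRE_inactive cells. The JNK gene MAPK9 differed by 0.55 ± 0.17 (adjusted p = 0.203 with the group alone and 0.0206 with the block).

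Stress genes outside the early response made up the remaining lists. Of 30 heat shock and chaperone genes, limma called 0 with the group alone, where 4 had an unadjusted p under 0.05, and the median difference was -0.01. With the block 2 were called higher, one of them the collagen chaperone gene SERPINH1 (0.87 ± 0.22, adjusted p = 0.112 with the group alone and 0.00896 with the block). HSPB9, a small heat shock protein gene listed under its older name HSP25, differed by -1.43 ± 0.49, the HSP110-family gene HSPA4 by 0.27 ± 0.10 and the HSP40 gene DNAJA1 by 0.20 ± 0.08, with adjusted p = 0.246, 0.299 and 0.318. Second probe sets gave -1.67, -0.17 and 0.15 for the same genes (adjusted p = 0.200, 0.483 and 0.551), so those of HSPA4 differed in sign, and that of HSPB9 passed with the block (adjusted p = 0.0497).

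Of 23 genes of the unfolded protein and amino acid stress responses, 1 rose with the group alone and 4 with the block, and the median difference was 0.07. The one was SESN1 (0.64 ± 0.11, adjusted p = 0.0211), a p53 target, while its dimmer probe set gave an adjusted p of 0.866. The kinase gene EIF2AK2 differed by 0.54 ± 0.14 and EDEM1, a gene of endoplasmic reticulum quality control, by 0.54 ± 0.18 (adjusted p = 0.119 and 0.226). Both passed with the block, at adjusted p = 0.0314 and 0.0126. The disulfide isomerase gene PDIA3 differed by 0.23 ± 0.09 (adjusted p = 0.305, and 0.719 and 0.896 for its other probe sets).

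Of 22 oxidative and DNA damage stress genes, limma called 0 with the group alone, where 8 had an unadjusted p under 0.05, and with the block 3 higher and 2 lower, with a median difference of 0.01. The cell cycle inhibitor CDKN1A, present on 4 BRE_active and 2 BRE_inactive arrays, differed by 0.75 ± 0.17 and the p53 regulator MDM2 by 0.96 ± 0.24 (adjusted p = 0.0828 and 0.105 with the group alone, 0.00732 and 0.0136 with the block). A second MDM2 probe set, present on 1 array, gave an adjusted p of 0.832. HMOX1, the heme-degrading enzyme gene, was detected on 1 BRE_inactive array only. Its mean reading was 2.36-fold lower in BRE_active cells (adjusted p = 0.109, and 0.000530 with the block). Red blood cell markers were lower in the same cells, and their part in the HMOX1 reading was not tested. NQO1, a quinone reductase gene, was detected on 1 BRE_active array only. Its mean reading was 1.39-fold higher in BRE_active cells (adjusted p = 0.145, and 0.647 for a probe set present on no array). With so few present calls, the ratios for HMOX1 and NQO1 are neither measured sizes nor lower bounds. In all, 8 of the related genes of these 6 lists were called with the group alone and 30 with the block. The first count was 1, 1, 2 and 18 without BRE_active 1, 2, 3 and 4, and 5 and 3 without BRE_inactive 2 and 4. Of the 8 called genes, PLK2 alone was called without any single array (adjusted p up to 0.00441). CCN2 was not called without BRE_active 1 or 2 (adjusted p up to 0.0589), and SESN1, RHOB, CSRNP1, HRAS, ELK3 and RPS6KA1 were each not called without 4 to 7 of the 8 arrays, BRE_active 1, 2 and 3 among them for all 6 genes (adjusted p up to 0.151). With the block, some of the genes named were no longer called when a pool was left out. Calls over all probe sets fell as well, from 2156 to 1736, 1144, 767 and 1653 without pools 1 to 4. MAFA and MAPK9 were not called without pool 2, 3 or 4 (adjusted p up to 0.171 and 0.0810), RPS6KA1 without pool 1, 3 or 4 (up to 0.171) and EIF2AK2 without pool 1, 2 or 4 (up to 0.118). EDEM1 and MDM2 were not called without pool 2 or 3 (adjusted p up to 0.0679 and 0.0936), and RHOB and CDKN1A without pool 3 (0.0573 and 0.0605).

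**Figure D5:**
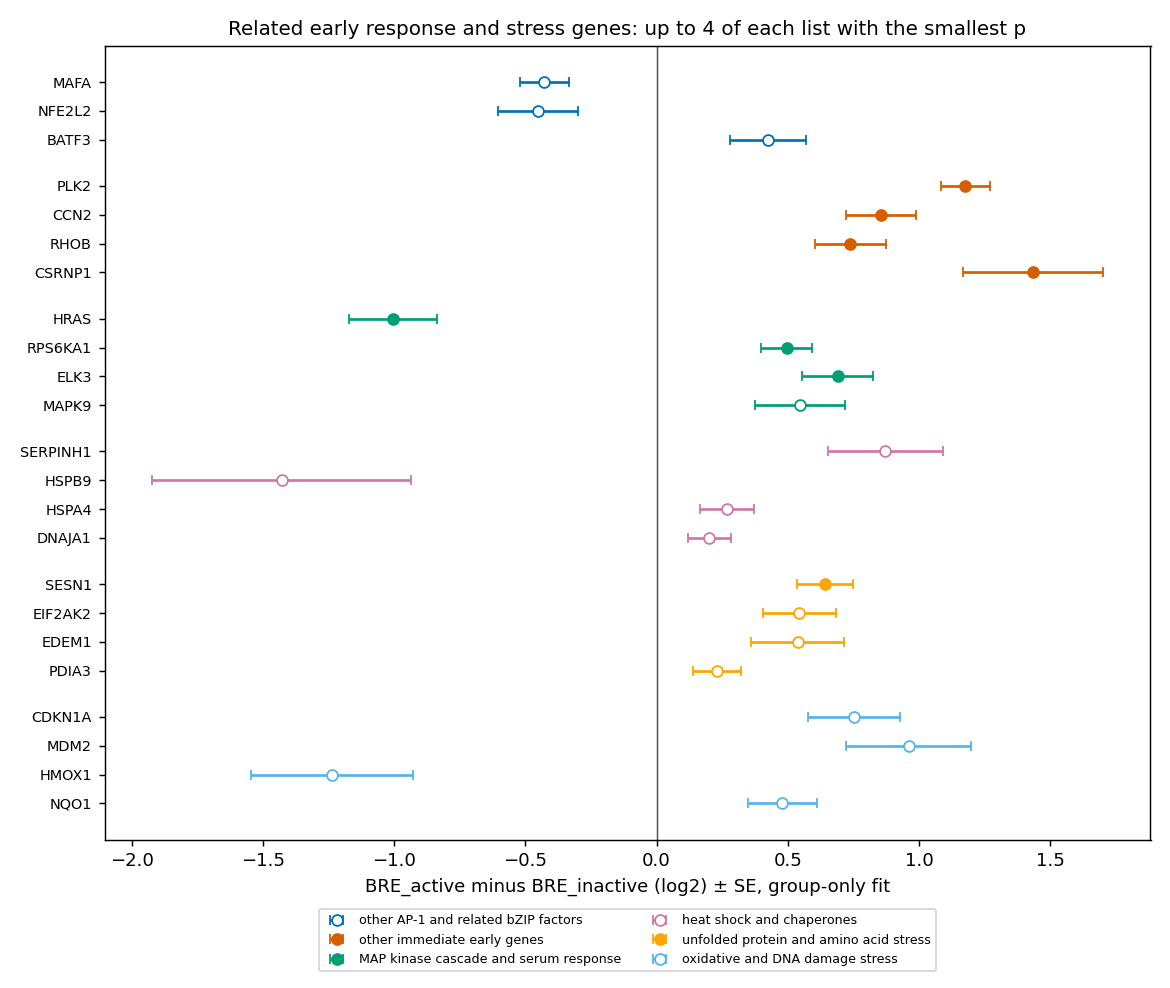
Difference between BRE_active and BRE_inactive cells (log2) ± SE in the fit on group alone, for up to 4 genes with the smallest p of each related list, in one colour for each list. Filled points passed an adjusted p of 0.05: PLK2, CCN2, RHOB and CSRNP1 among immediate early genes, HRAS, RPS6KA1 and ELK3 in the MAP kinase list, and SESN1. MAFA was detected in neither group, RPS6KA1 and NQO1 not in BRE_inactive and HMOX1 not in BRE_active. The points of these genes show readings and not measured sizes.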

How the data were processed

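Expression was measured on 8 Affymetrix chicken arrays. The table that the authors deposited holds a log2 value for each probe set on each array, the group means and SDs, the difference of those means with its adjusted p-value, and how many arrays of a group had a present, marginal or absent call. Biotinylated cRNA came from 6 ug of total RNA, per the labels' protocols. For background correction, normalization, probe summary and present calling, the methods were not given in the sources used here. The series' other log2 table matched this one within 5.00e-09, and 8 columns of call letters were not used. Refitting group alone over all probe sets, Affymetrix controls kept, returned the authors' adjusted p-value within 6.41e-13. The adjusted p-values given here leave out those controls and differ slightly, for the brighter EGR1 probe set 0.427 against the authors' 0.428. Array medians lay between 4.24 and 4.32, and the number of arrays limits the precision.

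After 96 Affymetrix control probe sets were left out, limma 3.58.1 in R 4.3.3 (lmFit, eBayes, Benjamini-Hochberg) was run on group alone, checked on simulated data. Symbols were updated by gene ID with the RefSeq gene table of GRCg7b (22915 of 26132 probe sets with an ID matched). A gene was represented by its brightest probe set. Pools pair the arrays by design, since each pool was sorted into both fractions. Deviations from the group means correlated at -0.141, 0.203, 0.498 and 0.584 between the fractions of pools 1 to 4, with a consensus correlation of 0.223. Members, lists and tests were chosen with earlier results of these data known. The named genes were all member probe sets, the 4 genes of each related list with the smallest p (1 of them is not reported here), and the 3 genes nearest in pattern to EGR1, FOS and any other detected member that spanned 1 log2 unit. Alternatives were the block, leaving out arrays or pools, a present filter, other normalizations, another variance prior and the second value set.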

Additional observations from a re-analysis of the deposited data

Results flagged for a closer look

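Among 22 groups of 4 arrays, 1 value stood far from the others of its group. The dimmest KLF6 probe set read 4.01 in BRE_inactive 3 and 3.79 to 3.82 on the other BRE_inactive arrays. Chance flags about 1 in 20 groups. The same probe set was also highest in pool 3 among BRE_active arrays, at 4.09.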

How the results depend on the processing

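Pairing the arrays by pool of embryos, as a replicate block, changed 5 of the 11 member calls. Values here are log2 differences of BRE_active from BRE_inactive. For ATF3, undetected in BRE_inactive, and for FOS and FOSL2, undetected in both groups, they are differences of readings and not measured sizes. With the block the called members were both EGR1 probe sets (1.25 and 1.39), JUN (0.57), ATF3 (0.56) and the second KLF6 probe set (0.68), and no other member call changed. The values were the same with the block and a filter of presence on 4 of 8 arrays, where ATF3 was not tested, and with the block and a trended, robust variance prior. They were 1.23, 1.37, 0.56, 0.58 and 0.61 after quantile normalization and 1.27, 1.41, 0.59, 0.58 and 0.70 after centring arrays on their medians. With the pool as a random block JUN alone was called (0.57). These combinations with the block, and the random block, were chosen after seeing the data.

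The block without pools 1, 2, 3 and 4 gave 1.13, 1.13, 1.32 and 1.42 for the brighter EGR1 probe set, 0.57, 0.57, 0.60 and 0.56 for JUN and 0.74, 0.67, 0.61 and 0.72 for the second KLF6 probe set. The called values were 0.57, 0.56 and 0.59 for ATF3 without pools 1, 2 and 4, and 1.11 and 1.68 for the dimmer EGR1 probe set without pools 1 and 4. Undetected members changed sign: FOS to -0.062 without pool 4, the second FOSL2 probe set to 0.079 and 0.041 without pools 1 and 3 and to 0.0050 after quantile normalization, with or without the block, and the third FOSL2 probe set to 0.0020 and 0.0078 without pools 3 and 4.

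Without the block, leaving out 1 array or pool moved EGR1 from 0.84 to 1.83 and from 0.94 to 1.94, JUN from 0.49 to 0.65, ATF3 from 0.39 to 0.69, and the KLF6 probe sets from 0.28 to 0.44, from 0.56 to 0.84 and from -0.023 to 0.11. FOS ran from -0.062 to 0.056 and the FOSL2 probe sets from -0.19 to -0.050, from -0.16 to 0.079 and from -0.074 to 0.030. The cause was not tested.

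Member probe sets called numbered 0 with the group alone and 0 to 3 with 1 array or pool left out. They numbered 5 with the block, 5 with it and either normalization or the other prior, 4 with it and the filter, 5, 4, 3 and 5 without pools 1 to 4, and 1 with the random block. Over all probe sets the 517 calls became 2156 with the block, 2262 with quantile normalization, 2096 with median centring, 1954 with the filter and 2287 with the other prior besides, 1736, 1144, 767 and 1653 without pools 1 to 4, 1068 with the random block, 77 to 1419 with 1 array or pool left out, and 460 to 588 under the other alternatives. Related genes called went to 30 with the block, 30 with either normalization, 26 with the filter and 31 with the other prior besides, 24, 20, 14 and 19 without pools 1 to 4, 21 with the random block, 1 to 18 with 1 array or pool left out, and 7 to 10 under the others, against 8 with the group alone. Other alternatives without the block changed no member call. Presence on 0 arrays limits what can be said of FOS and FOSL2.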

Other observations

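Some other early response genes that were detected on all 8 arrays did not pass with or without the block. They were named after their values were seen. DUSP1, a phosphatase that shuts off MAP kinases, differed by 0.08 (adjusted p = 0.760, and 0.730 with the block), ERRFI1, an inhibitor of EGF receptor signalling, by 0.05 (adjusted p = 0.828, and 0.809 with the block), and NFKBIA, the inhibitor of NF-kappa-B, by 0.09 (adjusted p = 0.806, and 0.795 with the block). A p that misses the threshold does not show that their levels were the same.

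The 4 immediate early genes called lower with the block were BTG1 and BTG2, which restrain proliferation, GADD45G, a growth arrest gene, and ID1, an inhibitor of DNA binding, also named after their values were seen. Their differences were -0.59 ± 0.13, -0.41 ± 0.10, -0.78 ± 0.25 and -0.76 ± 0.17, with adjusted p = 0.0739, 0.0842, 0.207 and 0.0760 with the group alone and 0.00748, 0.0341, 0.0106 and 0.00747 with the block. CYR61, which encodes a matricellular protein related to CCN2, had a difference of 1.49 ± 0.31 (adjusted p = 0.0543 with the group alone and 0.000434 with the block). MYC and SIK1 were likewise called higher with the block only. Their differences were 0.64 ± 0.13 and 0.40 ± 0.10, with adjusted p = 0.0536 and 0.101 with the group alone and 0.0246 and 0.0468 with the block.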
